A study of Mus musculus with 36 samples.

Results

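The genes described here are 10 genes of the unfolded protein response (UPR) in mouse liver: Hspa5, Hyou1, Pdia4, Sdf2l1, Creld2, Dnajb9, Herpud1, Xbp1, Atf4 and Ddit3. They were found by symbol in the expression tables, where they are 10 of 24346 symbols, each on 1 row, and all 10 were among the 13215 genes tested, which averaged 0.1 FPKM or more. FPKM (fragments scaled by transcript length and by the library's mapped fragments) is a level per transcript length, so levels of different genes can be set side by side. Wild-type male C57BL/6JRj mice, 16 weeks old, lived 5 to a cage in 12 h of light and 12 h of dark, with lights on at zeitgeber time 0 (ZT0). Mice under chronic intermittent hypoxia (IH) received 60 cycles per h between 21% and 5% inspired oxygen from ZT0 to ZT8 on each day of 4 weeks, and control mice received matched cycles of air. Livers were taken at ZT0, ZT4, ZT8, ZT12, ZT16 and ZT20 from 3 mice per time point and condition, which gave 36 libraries of polyadenylated RNA, 18 per condition. The ZT4 livers were thus taken within the daily hypoxic window and the ZT12, ZT16 and ZT20 livers after it.

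The UPR is the program by which a cell adjusts the folding capacity of the endoplasmic reticulum (ER) to its load of secretory and membrane proteins. Its sensors are the kinase and RNase IRE1 (gene Ern1), the eIF2α kinase PERK (Eif2ak3) and the membrane-bound factor ATF6 (Atf6). IRE1 splices the mRNA of Xbp1, PERK favours translation of ATF4, and ATF6 is cut in the Golgi to release a transcription factor; these factors raise chaperones, folding enzymes and degradation components of the ER. Hepatocytes secrete most plasma proteins, and ER chaperones are known to vary with the daily feeding cycle in liver. The tables give 1 level per gene, so they hold no measure of Xbp1 splicing or of protein.

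At ZT4 the transcripts of 5 folding factors of the ER lumen (Hspa5, Hyou1, Pdia4, Sdf2l1 and Creld2) and of Xbp1 were at lower levels in every IH mouse than in any control mouse, and at ZT12 the same 5 folding factors were at higher levels in every IH mouse than in any control mouse. Being apart at both time points in this way held for 1.56% of tested genes. At the single time points 1 member passed the test at ZT4 (Hyou1) and 1 at ZT12 (Pdia4), and the interaction of condition with time point passed for no member (smallest adjusted p by limma 0.0588). In a contrast chosen after the values were seen, the log2 difference between IH and control changed from ZT4 to ZT12 by 2.13 to 3.78 in the 5 genes and passed in each, against 2.01% of tested genes. Averaged over the day, none of the 10 genes passed the test between conditions. Dnajb9, Herpud1, Atf4 and Ddit3 overlapped between the conditions at both of these time points.

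The 36 libraries were alike in total, with FPKM sums of 561964 to 626371, except replicate 2 of control at ZT12 with 808274. That library, replicate 3 of control at ZT16 and replicate 2 of IH at ZT0 held the acute-phase gene Saa1 at 20550, 12910 and 22870 FPKM, and the remaining libraries held it at 2470 FPKM or less. All 7 hepatocyte markers examined (such as Alb and Apoa1) were above 0 in each library. Of 11 pancreatic acinar markers 6, among them Prss2 and Pnlip, were at 0 throughout, and 2 were above 0 in each library. The acinar markers summed to 5.74 to 20.7 FPKM in control and 9.68 to 25.7 FPKM in IH. Since these are bulk livers, fewer cells of a type and less RNA per cell cannot be told apart. Read numbers are unknown for FPKM, so no counting interval is given.

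By mean level over 18 libraries the genes stood in the same order in both conditions. In control livers the order was Hspa5 (277 ± 113 FPKM, SD, n = 18), Herpud1 (176 ± 71.9), Xbp1 (103 ± 24.5), Pdia4 (77.0 ± 28.3), Atf4 (71.0 ± 12.8), Hyou1 (43.4 ± 21.5), Creld2 (39.1 ± 27.1), Dnajb9 (34.0 ± 13.1), Sdf2l1 (30.6 ± 16.7) and Ddit3 (8.41 ± 4.59). Of the 9 pairs of neighbours in control, 3 differed by more than the larger SD of the pair, namely Herpud1 and Xbp1, Atf4 and Hyou1, and Sdf2l1 and Ddit3. In IH livers only Herpud1 (200 ± 80.2 FPKM, SD, n = 18) and Xbp1 (97.8 ± 33.7) did so. These SDs hold the change over the day as well as the spread between mice. Within a time point the SD between mice, on the log2(FPKM + 1) scale, had a median over the 10 genes of 0.401 in control and 0.435 in IH, against 0.162 and 0.111 over all tested genes. This scale lowers the SD of genes at low levels, and genes at levels like those of the members were not compared.

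**Figure D1:**
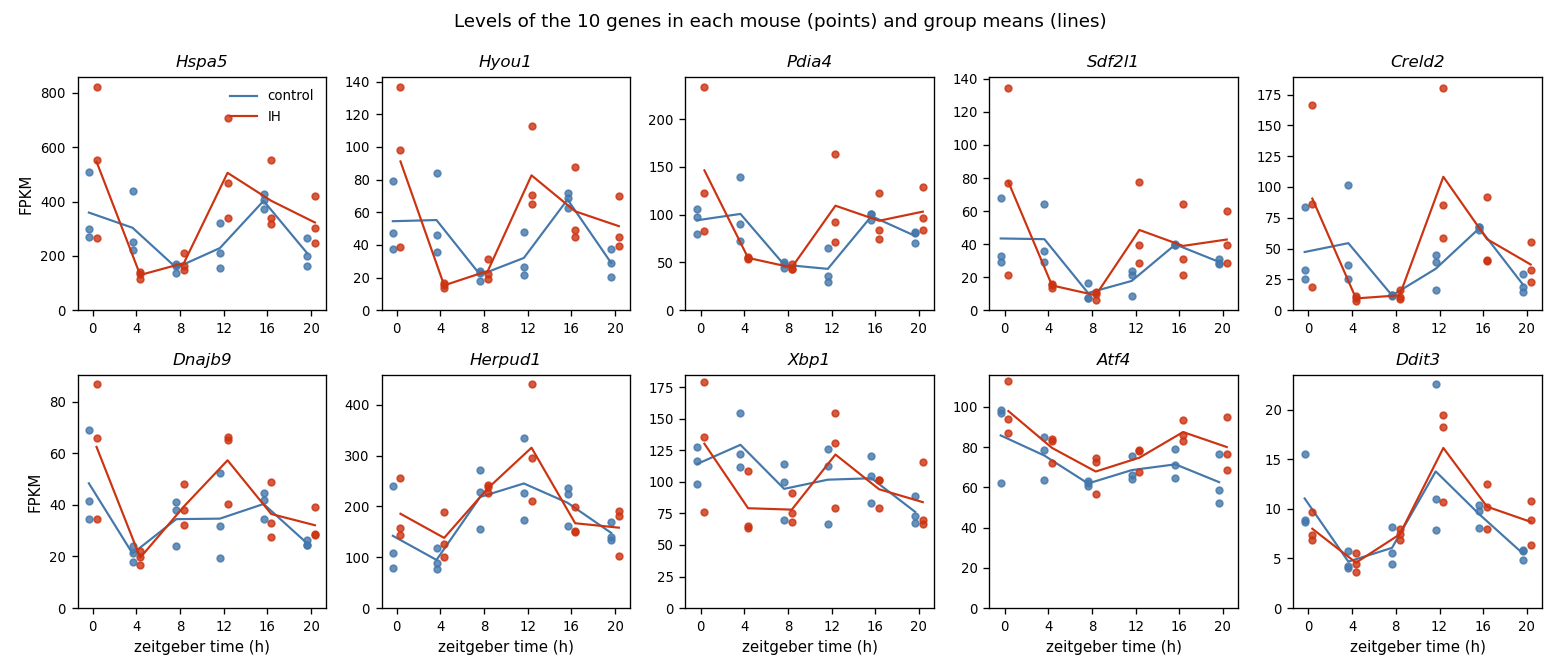
Levels in FPKM (vertical axis, from 0, own scale per gene) of the 10 genes over zeitgeber time in h; each point is 1 mouse, control in blue and IH in red, and lines join the means of 3 mice. In the upper row all IH points at ZT4 lie below the control points and all IH points at ZT12 above them.

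Among the folding factors, Hspa5 encodes BiP, the HSP70 chaperone of the ER that also holds the UPR sensors inactive; it lies at chr2:34771970-34777547 on the plus strand (mm10, GENCODE M21 annotation). Its level at ZT4 was 251, 439 and 220.1 FPKM in the control mice and 116, 134 and 139 FPKM in the IH mice. At ZT12 it was 157, 210.1 and 319.5 FPKM in control and 341, 709 and 467 FPKM in IH. The groups did not overlap at either time point, with IH below control at the first and above it at the second. The log2 difference, IH minus control, was -1.16 at ZT4 (SE 0.341, adjusted p = 0.0792) and 1.14 at ZT12 (SE 0.341, adjusted p = 0.0743), by limma's moderated test with adjustment over all 13215 genes, so neither passed the threshold of 0.05 by itself.

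Hyou1 encodes the ER member of the HSP110 family, which serves BiP as nucleotide exchange factor and was named for its rise in hypoxic cells (chr9:44379490-44392369, plus strand). At ZT4 it was at 46.3, 83.8 and 35.6 FPKM in control and at 13.6, 16.5 and 15.5 FPKM in IH. At ZT12 the control mice had 26.5, 21.5 and 48.1 FPKM and the IH mice 65.0, 113 and 70.3 FPKM. Hyou1 was the 1 member that passed at ZT4, lower in IH by a log2 difference of -1.71 (SE 0.378, adjusted p = 0.0245), where 0.272% of tested genes were called lower and 0.885% higher. Its difference at ZT12 was 1.38 (SE 0.378, adjusted p = 0.0624). Leaving out replicate 1 or 2 of control or any one of the 3 IH libraries at ZT4 raised the adjusted p of the ZT4 difference to 0.0616, 0.086, 0.0789, 0.0814 and 0.0925.

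Pdia4 encodes a protein disulfide isomerase, which forms and rearranges disulfide bonds (chr6:47796141-47813430, minus strand). Its level at ZT4 was 90.7, 140 and 72.3 FPKM in control and 54.0, 54.4 and 55.9 FPKM in IH. At ZT12 it was 35.7, 29.4 and 64.8 FPKM in control and 71.7, 164 and 92.7 FPKM in IH. The IH mice at ZT4 were close together, while the IH mice at ZT12 ranged widely above all 3 controls. Pdia4 was the 1 member that passed at ZT12, higher in IH by 1.31 (SE 0.300, adjusted p = 0.044), where 0.272% of tested genes were called higher and 0.499% lower. That call was near the threshold, and leaving out any one of 24 of the 36 libraries ended it, with the largest adjusted p of 0.21 without replicate 2 of control at ZT12, the library with the deviating FPKM sum, and 0.182 and 0.122 without replicates 2 and 3 of IH at ZT12. With the replicate number as a block the adjusted p was 0.0536, and residuals of same-numbered mice at ZT12 correlated by 0.136 to 0.294. At ZT4 its difference was -0.81 (SE 0.300, adjusted p = 0.164).

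Sdf2l1 encodes a small lumenal partner of the ER J-domain proteins (chr16:17130138-17132383, minus strand). It was at 35.6, 64.5 and 28.9 FPKM in control and at 13.5, 16.1 and 15.3 FPKM in IH at ZT4. At ZT12 it was at 8.38, 23.6 and 21.2 FPKM in control and 28.5, 77.9 and 39.3 FPKM in IH. The 2 conditions were again apart in opposite directions, with log2 differences of -1.38 at ZT4 (SE 0.496, adjusted p = 0.153) and 1.40 at ZT12 (SE 0.496, adjusted p = 0.101).

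Creld2, a secreted and ER-resident protein with isomerase activity, covered the widest range of the 10 (chr15:88819646-88826683, plus strand). Control livers held 36.7, 102 and 25.0 FPKM at ZT4, and IH livers 7.32, 10.1 and 11.3 FPKM. At ZT12 the values were 16.4, 44.9 and 39.5 FPKM in control and 58.8, 180.4 and 85.6 FPKM in IH. From the lowest to the highest group mean of the day Creld2 spanned 5.55-fold in control (ZT8 to ZT16) and 11.3-fold in IH (ZT4 to ZT12). Its differences of -2.16 at ZT4 (SE 0.581, adjusted p = 0.0563) and 1.62 at ZT12 (SE 0.581, adjusted p = 0.103) did not pass; with the replicate number as a block the ZT4 difference did (adjusted p = 0.044).

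The counts of separated genes can be set against all tested genes. At ZT4, 6 of the 10 members had every IH library below every control library, which held for 7.79% of tested genes, and 0 of 10 had the reverse, which held for 26.7% of tested genes. At ZT12, 5 of 10 had every IH library above every control library, against 6.34% of tested genes. Both at once held for 5 of 10 members and for 1.56% of tested genes. The median log2 difference of the members was -0.77 at ZT4 and 0.96 at ZT12, where the medians of all tested genes were 0.07 and 0.03. Fitted on the 6 ZT4 libraries alone, limma called 4 members lower (Hspa5, Hyou1, Sdf2l1 and Creld2, adjusted p of 0.0315 to 0.0497), against 1.5% of tested genes.

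**Figure D2:**
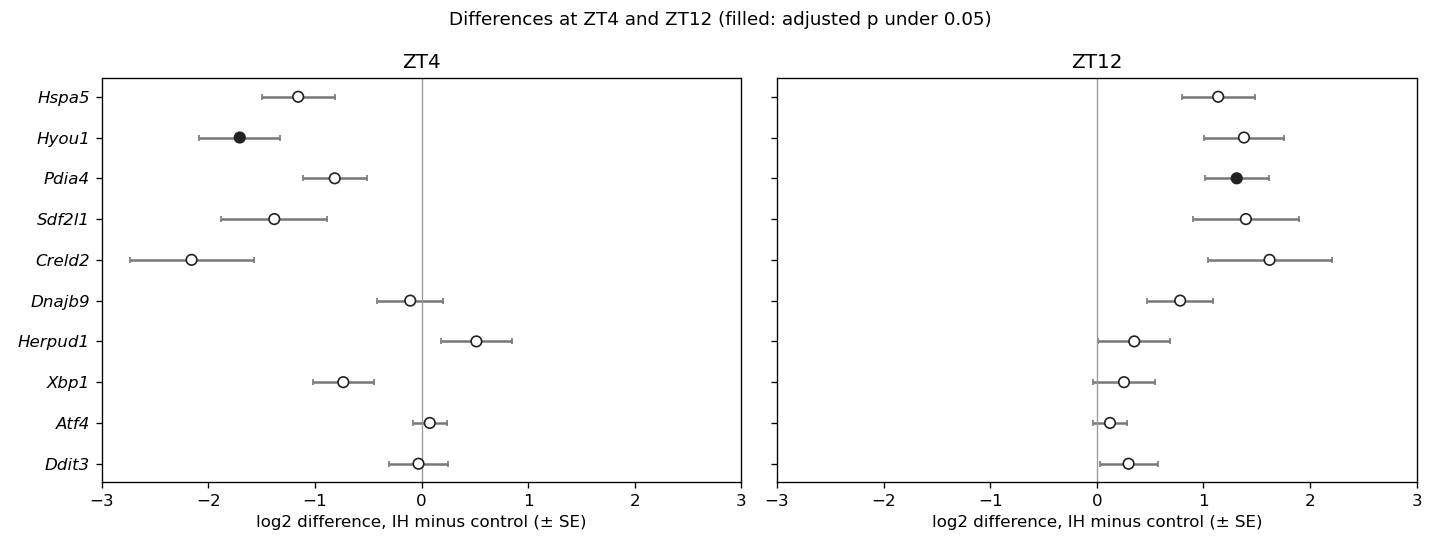
Log2 difference in level, IH minus control (horizontal axis, log2(FPKM + 1) scale), at ZT4 (left) and ZT12 (right) for the 10 genes, with bars for ± 1 SE; filled points passed an adjusted p of 0.05. The 5 uppermost genes lie left of 0 at ZT4 and right of 0 at ZT12, and the filled points are Hyou1 at -1.71 and Pdia4 at 1.31.

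The change of the difference from ZT4 to ZT12 was tested as a contrast of its own, chosen after the values were seen. It was 2.30 for Hspa5 (SE 0.482, adjusted p = 0.0108), 3.09 for Hyou1 (SE 0.534, adjusted p = 0.00346), 2.13 for Pdia4 (SE 0.424, adjusted p = 0.00835), 2.78 for Sdf2l1 (SE 0.702, adjusted p = 0.0217) and 3.78 for Creld2 (SE 0.822, adjusted p = 0.0115). These 5 of 10 passed in the positive direction, against 2.01% of tested genes, and no member passed in the negative direction, against 3.87%. Without the 3 libraries with Saa1 above 10000 FPKM the 5 contrasts were 1.90 to 4.04, with adjusted p of 0.00303 to 0.00776. In that fit 1956 of all tested genes passed this test in either direction, against 777 in the main fit. The call held in 43 of 43 other settings for Hspa5, Hyou1, Pdia4 and Creld2, and in 41 for Sdf2l1, whose adjusted p was 0.0513 without replicate 1 of control and 0.0749 without replicate 2 of IH at ZT12.

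Markers of cell types were summed in the same groups. At ZT4 the hepatocyte markers summed to 46150 to 47640 FPKM in control and to 53670 to 56920 FPKM in IH, and at ZT12 to 54910 to 65810 FPKM in control and 48690 to 53910 FPKM in IH, so they did not overlap at either time point and lay on the opposite side from the folding factors. Markers of plasma cells, which are rich in ER chaperones, summed to 59.6 to 64.5 FPKM in control and 47.1 to 57.1 FPKM in IH at ZT4, and to 51.6 to 55.3 and 49.3 to 59.8 FPKM at ZT12. They were thus apart at ZT4, on the same side as the folding factors, and overlapped at ZT12. Of 5 plasma cell markers measured, 1 averaged 1 FPKM or more, so their sum rests mainly on 1 gene and not on the set. Jchain was at 0.243 to 1.28 FPKM in all libraries but the control ZT12 library with the deviating sum, at 4.42 FPKM. Markers of Kupffer cells and leukocytes summed to 50.6 to 188 FPKM in control and 30.0 to 43.0 FPKM in IH at ZT12, and overlapped at ZT4. The part of these markers in the result was not tested.

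At the other time points no member passed limma's test. The share of tested genes called was 0% at ZT0, 0.00757% at ZT8, 0.00757% at ZT16 and 0% at ZT20. The members with an unadjusted p under 0.05 were 0, 0, 0 and 2 at these time points, the 2 at ZT20 being Atf4 and Hyou1. The shares of all tested genes with an unadjusted p under 0.05 were 7.57%, 4.74%, 3.3% and 4.74%. At ZT0 the folding factors had a wide spread in IH, where replicate 3 lay far below the others. Creld2 was at 86.3, 166 and 19.0 FPKM there, against 33.0, 83.5 and 25.1 FPKM in control. The groups overlapped for every member at ZT0 and at ZT8. At ZT8 the folding factors were at or near their lowest in both conditions, with Creld2 at 11.5, 12.4 and 12.0 FPKM in control and 10.3, 9.31 and 16.7 FPKM in IH. At ZT16 Hspa5 was at 429, 405 and 374 FPKM in control and 552, 339 and 318 FPKM in IH. At ZT20 the 4 genes Ddit3, Dnajb9, Pdia4 and Hyou1 had all IH libraries above all control libraries, against 11.8% of tested genes; at ZT16 this held for Atf4, against 10% of tested genes.

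**Figure D3:**
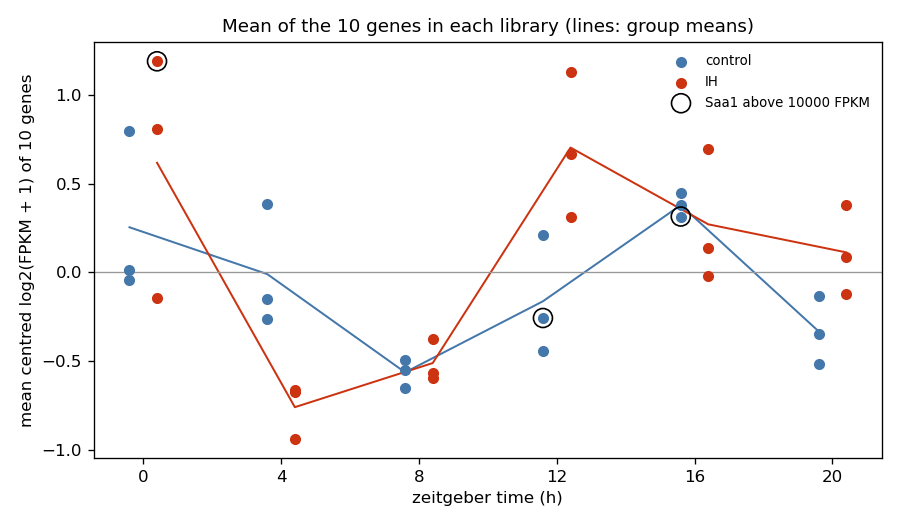
Mean over the 10 genes of log2(FPKM + 1) centred on each gene's own mean (vertical axis) in each of the 36 libraries over zeitgeber time in h, control in blue and IH in red, lines joining group means; circles mark the 3 libraries with Saa1 above 10000 FPKM. The 3 IH livers at ZT4 lie lowest, at -0.94 to -0.665, and the highest library, at 1.19, is a circled IH liver at ZT0.

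Of the remaining members, Dnajb9 encodes ERdj4, a J-domain partner of BiP that also hands misfolded proteins to degradation (chr12:44205559-44210326, minus strand). Its groups overlapped at ZT4, where control had 17.9, 21.5 and 23.9 FPKM and IH 16.7, 19.9 and 22.0 FPKM. At ZT12 it was at 31.9, 19.6 and 52.5 FPKM in control and 40.3, 65.1 and 66.4 FPKM in IH, with overlap and a difference of 0.78 (SE 0.309, adjusted p = 0.129). Herpud1, a membrane component of ER-associated degradation, had its highest mean at ZT12 and its lowest at ZT4 in both conditions (chr8:94386438-94395377, plus strand). Its levels at ZT4 were 118, 76.4 and 89.3 FPKM in control and 100.4, 126 and 188 FPKM in IH, with a difference of 0.51 (SE 0.335, adjusted p = 0.456).

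Among the transcription factors, Xbp1 was at 111, 154 and 122 FPKM in control and 65.2, 109 and 63.2 FPKM in IH at ZT4 (chr11:5520659-5525893, plus strand). The groups did not overlap, and the difference of -0.73 (SE 0.288, adjusted p = 0.191) did not pass. At ZT12 Xbp1 overlapped, with 126, 66.3 and 113 FPKM in control and 131, 154 and 79.6 FPKM in IH. Atf4, which drives amino acid and stress genes (chr15:80255184-80257541, plus strand), varied least over the day, by 1.39-fold in control and 1.44-fold in IH between its lowest and highest group means. At ZT16 it was at 71.0, 64.5 and 78.8 FPKM in control and 86.1, 93.4 and 82.9 FPKM in IH. Ddit3 encodes CHOP, a factor tied to cell death in lasting ER stress, and was the lowest of the 10 (chr10:127290774-127296288, plus strand). At ZT12 it was at 7.84, 22.5 and 10.9 FPKM in control and 10.7, 18.2 and 19.5 FPKM in IH, with overlap. In the annotation 68 exonic bases of Ddit3 (3.97%) also belong to Mars on the opposite strand; the libraries were strand-specific, and whether the expression estimates used strand is not given in the sources used here.

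Averaged over the 6 time points, no member passed limma's test between IH and control, and 1 member, Atf4, had an unadjusted p under 0.05, against 10.8% of tested genes. Among all tested genes 0.303% were called higher and 0.053% lower in this comparison. Atf4 averaged 71.0 ± 12.8 FPKM over control livers and 81.3 ± 12.8 FPKM over IH livers (SD, n = 18), a log2 difference of 0.20 (SE 0.0618, adjusted p = 0.19). Over ZT4 and ZT8 together, the time points within and at the end of the hypoxic window, again no member passed, although 6.05% of tested genes were called higher and 1.93% lower. Unadjusted p values under 0.05 were found for 5 members, Xbp1, Sdf2l1, Creld2, Pdia4 and Hyou1, all lower in IH, against 27.1% of tested genes in either direction. For Creld2 the difference over both time points was -1.09 (SE 0.409, adjusted p = 0.115) while at ZT8 alone it was -0.03 (SE 0.581).

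A cosine of 24 h was fitted within each condition and called at a nominal P of 0.01 or less. In control livers 3 members were called rhythmic, Herpud1 (P = 0.0024), Sdf2l1 (P = 0.0067) and Pdia4 (P = 0.00437), by limma's moderated F test with n = 18, against 20% of tested genes. In IH livers 1 member, Ddit3 (P = 0.00108), was called by the same limma test with n = 18, against 39.9% of tested genes. The count in IH was sensitive to the setting. Hspa5, Sdf2l1, Creld2, Pdia4 and Hyou1 had P of 0.0112 to 0.0203 by limma with n = 18, and 6 members were called at an adjusted p of 0.05 in place of the nominal P. Leaving out 1 IH library gave 7 members without replicate 2 at ZT0, 5 without replicate 1 at ZT20, 3 without replicate 1 at ZT0, replicate 2 at ZT12 or replicate 3 at ZT16, and 2 without replicate 3 at ZT20. The difference of the 24-h rhythm between conditions passed for 0% of tested genes and for no member, and no member had an unadjusted p under 0.05 by limma in that test, against 649 of all tested genes. Any difference over the 6 time points, tested as the interaction of condition with time point, passed for 0.136% of tested genes and for no member, with the smallest adjusted p by limma at 0.0588 for Hyou1.

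The time courses had a pair of highs and a pair of lows a day in several members, so a 12-h cosine was added to the 24-h cosine after the values were seen. With 4 h between time points each 12-h cycle held 3 of them, and other shapes with a pair of highs cannot be told apart from a 12-h rhythm. In IH the 12-h component passed for 7 of 10 members (Hspa5, Hyou1, Pdia4, Sdf2l1, Creld2, Dnajb9 and Ddit3), with adjusted p by limma of 0.0112 to 0.0477, against 10.4% of tested genes. Without replicate 2 of IH at ZT12 only Hyou1 passed, and without replicate 1 of IH at ZT0 3 members passed (Hspa5, Creld2 and Hyou1). Without replicate 1 or 2 at ZT4, replicate 2 at ZT8, replicate 3 at ZT12 or replicate 2 or 3 at ZT16 of IH, 4 passed each time, these 3 and Dnajb9. In control it passed for 1 member, Creld2 (adjusted p = 0.0403 by limma), against 0.885% of tested genes, and 7 members had an unadjusted p under 0.05, against 18.2% of tested genes. The call of Creld2 was lost in 13 of 36 fits that left out 1 library, each a control library at a time point other than ZT12, with adjusted p up to 0.104. Only the 18 control libraries enter this fit, so the fits without an IH library do not test the call. Without replicate 1, 2 or 3 of control at ZT12 the members that passed numbered 5, 6 and 3, and without replicate 2 at ZT0 or replicate 3 at ZT4 they numbered 2. Among all tested genes 1091 passed in control without its replicate 2 at ZT12, against 117 with all libraries. In IH 602 passed without its replicate 2 at ZT12, against 1380 with all libraries.

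The 12-h amplitudes of Creld2 were 1.04 ± 0.214 (SE) in control and 1.23 ± 0.270 (SE) in IH, on the log2(FPKM + 1) scale. The fitted 12-h peaks of the 5 folding factors fell at ZT2.64 to ZT3.93 and again 12 h later in control. In IH they fell at ZT11.8 to ZT12.3 and 12 h from there, which is also where the highest IH means stood, at ZT0 for Hspa5, Hyou1, Pdia4 and Sdf2l1 and at ZT12 for Creld2. The SE of these 12-h peak times was 0.384 to 0.537 h. The difference of the 12-h component between conditions passed for Hyou1 (adjusted p = 0.0388 by limma), against 0.227% of tested genes; the adjusted p of Pdia4, Creld2, Hspa5 and Sdf2l1 were 0.0622, 0.0827, 0.0923 and 0.148. That call was lost when any one of 17 of the 36 libraries was left out, with adjusted p up to 0.0989.

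**Figure D4:**
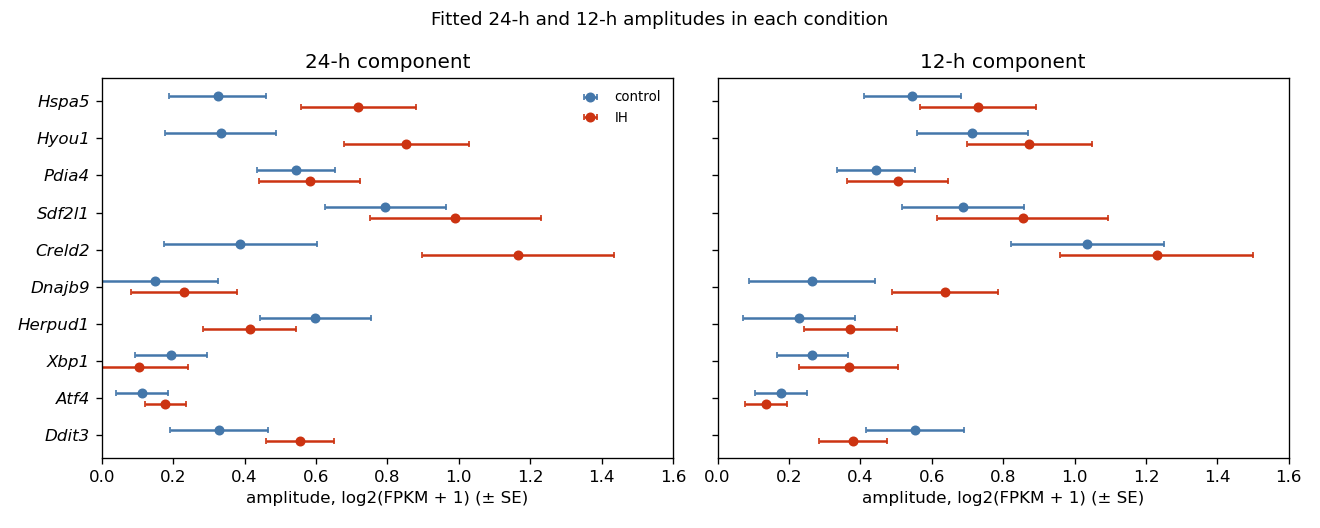
Amplitudes of the fitted 24-h (left) and 12-h (right) components in control (blue) and IH (red), in log2(FPKM + 1) with bars for ± 1 SE over 18 libraries, for the 10 genes. Creld2 has the largest 12-h amplitude in both conditions, 1.04 in control and 1.23 in IH, and Atf4 the smallest, 0.179 and 0.136.

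The members differed in how closely they varied with one another. Over the 36 libraries, Pearson's r of a member with the mean of the other 9 standardized members was 0.966 for Hspa5, 0.945 for Hyou1, 0.919 for Creld2, 0.771 for Sdf2l1, 0.749 for Pdia4 and 0.7 for Dnajb9. It was 0.538 for Ddit3, 0.482 for Xbp1, 0.347 for Atf4 and 0.192 for Herpud1. These are descriptions over libraries that share time points and conditions. The genes outside the 10 with the highest r to the mean of the members were Syvn1 (0.954), the ubiquitin ligase of ER-associated degradation, Manf (0.948), a secreted ER stress protein, and Gfpt1 (0.943), the entry enzyme of the hexosamine pathway, followed by Tmem214, Mlec, Ubfd1, Cad, Srprb, Alg12 and Tmed9, down to 0.913.

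Promoter sequences were examined because several members varied together. RefSeq promoter windows (GRCm38.p6) were found for 9 members, all but Hyou1, and the 250 bases before each start were searched on both strands. The motifs were the ER stress response element ERSE (CCAAT, any 9 bases, CCACG), ERSE-II (ATTGG, any base, CCACG), the UPR element (TGACGTGG), the ATF4-type element (TGATG, any base, AA), the cyclic AMP element (TGACGTCA) and the E-box (CACGTG); ERSE and ERSE-II share the letters CCACG. ERSE was present in full in the searched bases of 2 of 9 members, Hspa5 and Creld2, and in 0.113% of 32851 windows of all genes. ERSE-II was found in Herpud1, which also held the ATF4-type element; these were in 0.0304% and 3.45% of windows. The Herpud1 window ends in CCAAT, 9 bases and CCAC, so it stops before the last letter of an ERSE. Bases past that end were not searched, and GENCODE starts Herpud1 downstream of it, so whether Herpud1 holds an ERSE was not settled. The E-box was found in Dnajb9 and in 6.02% of windows, and in Dnajb9 it lies inside the GENCODE gene, whose start is upstream of the RefSeq start. The UPR element and the cyclic AMP element, in 0.563% and 1.55% of windows, were not matched in the 9. The site of Hspa5 is given as 30 bases on the plus strand, since GENCODE starts the gene upstream of it (chr2:34772020-34772049). The windows of Creld2 (chr15:88819396-88819645, plus strand, with the ERSE read on the opposite strand) and Herpud1 (chr8:94386179-94386428, plus strand) are shown as a separated and a non-separated gene with a match, and that of Pdia4 (chr6:47813513-47813762, minus strand) as a separated gene with none of these letters. GENCODE starts Pdia4 at chr6:47813430, downstream of its RefSeq start, and the bases between these starts were not searched. Capitals mark the matched motifs, and a match is a description of letters and not of binding.
Hspa5: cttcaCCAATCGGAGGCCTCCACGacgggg
Creld2: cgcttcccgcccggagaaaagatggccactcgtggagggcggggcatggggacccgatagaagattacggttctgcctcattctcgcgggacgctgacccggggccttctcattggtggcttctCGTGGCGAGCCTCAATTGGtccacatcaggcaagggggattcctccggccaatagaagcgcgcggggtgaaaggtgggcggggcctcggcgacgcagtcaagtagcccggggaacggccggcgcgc
Herpud1: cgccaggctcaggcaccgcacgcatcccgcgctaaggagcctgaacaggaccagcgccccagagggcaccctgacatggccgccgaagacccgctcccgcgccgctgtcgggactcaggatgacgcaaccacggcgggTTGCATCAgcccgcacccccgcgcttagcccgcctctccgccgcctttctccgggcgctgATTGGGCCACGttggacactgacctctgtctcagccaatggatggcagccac
Pdia4: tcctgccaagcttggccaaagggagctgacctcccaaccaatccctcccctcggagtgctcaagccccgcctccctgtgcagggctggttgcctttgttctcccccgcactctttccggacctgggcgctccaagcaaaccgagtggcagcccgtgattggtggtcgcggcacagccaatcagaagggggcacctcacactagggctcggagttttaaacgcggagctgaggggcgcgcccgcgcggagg

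The other genes of the pathway were taken from lists whose content was fixed with earlier results known, and are given by counts. Of 26 other ER chaperones and foldases tested, 12 passed the test of the change from ZT4 to ZT12 upward and 1, Cnpy2, downward, where 2.01% and 3.87% of all tested genes did, and the median change over the list was 0.58. Examples were the lumenal HSP90 Hsp90b1 (1.66, adjusted p = 0.011), the lectin chaperones Calr (1.01, adjusted p = 0.0216) and Canx (0.74, adjusted p = 0.0132), and the BiP partner Dnajb11 (1.57, adjusted p = 0.0108), by limma. In ER-associated degradation 6 of 24 genes passed upward and none downward, with Syvn1 at 2.41 (adjusted p = 0.0131) and its partner Sel1l at 0.98 (adjusted p = 0.0403). In translocation into the ER 7 of 24 passed upward, and in export by COPII vesicles 4 of 21, with the coat subunit Sec24d at 1.84 (adjusted p = 0.0115) and the cargo receptor subunit Mcfd2 at 0.59 (adjusted p = 0.0181). The named examples of this contrast were chosen after their values were seen. For all tested genes the median of this change was -0.03.

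**Figure D5:**
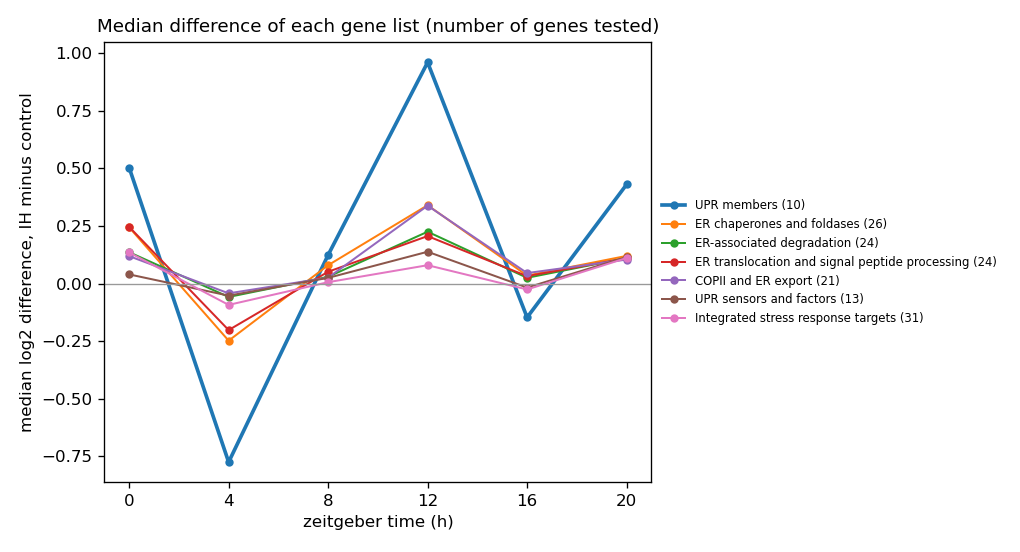
Median log2 difference in level, IH minus control (vertical axis), of the 10 UPR members and 6 lists of related genes at each zeitgeber time in h, with the number of genes tested in brackets. The members' median is -0.77 at ZT4 and 0.96 at ZT12, and the medians of the 6 lists lie between -0.25 and 0.34 at these time points.

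As means over the whole day, the 3 sensors were at levels below those of all members. Over the day Ern1 was at 1.92 FPKM in control and 1.83 in IH (log2 difference -0.02, SE 0.0751), Eif2ak3 at 2.83 and 3.14 FPKM (0.11, SE 0.0759) and Atf6 at 6.23 and 6.88 FPKM (0.13, SE 0.0627), with adjusted p by limma of 0.92, 0.618 and 0.463. Of the 13 sensors and factors tested none passed over the day, at ZT4 and ZT8, at ZT4 or at ZT12, and 1, Atf6b, passed in the change from ZT4 to ZT12 (0.87, adjusted p = 0.0131). By limma, 1 and 2 of the 13 had an unadjusted p under 0.05 over the day and at ZT4 and ZT8, and 2 and 4 at ZT4 and at ZT12, where the shares of all tested genes were 10.8%, 27.1%, 16.4% and 24.6%.

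Over ZT4 and ZT8 the targets of the integrated stress response, which lie downstream of ATF4, moved in both directions, with 3 of 31 higher and 3 lower in IH, where 6.05% and 1.93% of all tested genes were. Trib3, a pseudokinase induced by ATF4 and CHOP, rose from 4.73 ± 1.35 to 9.00 ± 2.41 FPKM (SD, n = 6 per condition), a log2 difference of 0.80 (SE 0.162, adjusted p = 0.0204 by limma), and the translation repressor gene Eif4ebp1 rose from 39.5 ± 3.88 to 46.9 ± 3.61 FPKM (0.24, SE 0.0471, adjusted p = 0.0171 by limma). The tRNA synthetase genes Aars and Nars fell in IH, by 0.30 (SE 0.0645, adjusted p = 0.0245) and 0.24 (SE 0.0547, adjusted p = 0.0281) on the log2 scale in the limma fit. Also past the threshold were Gdf15, with the largest fall (log2 difference -0.58, adjusted p = 0.0375), and Bcl2l11, which rose (0.36, adjusted p = 0.0289), by limma. Trib3 also passed at ZT4 alone, at 0.92 (adjusted p = 0.0383 by limma), where Atf4 and Ddit3 had differences of 0.08 and -0.03. Among 6 mRNAs cleaved by IRE1, Hgsnat rose from 15.1 ± 1.65 to 17.9 ± 1.55 FPKM (adjusted p = 0.0228 by limma) and Bloc1s1 from 82.8 ± 5.26 to 91.0 ± 3.42 FPKM (adjusted p = 0.0378 by limma), with n = 6 per condition, and the other 4 did not pass; the same shares of all tested genes apply to these lists. A list of 11 genes held eIF2 kinases and phosphatase genes together with others such as Eif2b1 and Dnajc3. Of these 1 passed, Eif2ak2, which fell from 2.54 ± 0.287 to 2.00 ± 0.212 FPKM (n = 6, adjusted p = 0.0393 by limma).

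In the ER lists over ZT4 and ZT8, 2 of 26 other chaperones and foldases and 1 of 24 degradation genes passed. In translocation 0 of 24 passed and in COPII export 0 of 21, where 6.05% of all tested genes were called higher and 1.93% lower. The chaperone gene Calr fell from 389 ± 125 to 295 ± 48.9 FPKM (adjusted p = 0.0426 by limma) and Cnpy2 rose from 58.0 ± 5.13 to 66.5 ± 1.74 FPKM (adjusted p = 0.0447 by limma). The segregase gene Vcp of ER-associated degradation fell from 104 ± 7.25 to 91.5 ± 5.03 FPKM (adjusted p = 0.0196 by limma), all with n = 6 per condition. Over the whole day 0.303% of all tested genes were called higher and 0.053% lower. In these lists 2 genes passed, 1 of 26 chaperones and foldases and 1 of 24 degradation genes, both higher in IH. They were the prolyl isomerase gene Fkbp14, at 2.18 FPKM in control and 2.81 in IH (log2 difference 0.25, SE 0.0467, adjusted p = 0.00757), and Derl2, a channel component of ER-associated degradation, at 19.2 and 21.8 FPKM (0.18, SE 0.0377, adjusted p = 0.0189), by limma.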

How the data were processed

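Liver mRNA was sequenced as strand-specific paired-end libraries. Per the submitters' processing notes the authors used TopHat2 2.1.1 and Cufflinks 2.2.1 on mm10, and deposited FPKM values in 1 table per condition. Table names gave the condition and the labels gave the columns; the tables held 24883 rows, and 280 symbols on more than 1 row were left out. The deposited FPKM are normalized to transcript length and fragments, so depth is unknown. Annotation was GENCODE M21 and promoter windows were RefSeq GRCm38.p6; where these disagree on a start, positions follow RefSeq.

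Tests used limma 3.58.1 (R 4.3.3) on log2(FPKM + 1), moderated with an intensity trend (Benjamini-Hochberg over the 13215 genes that averaged 0.1 FPKM or more; adjusted p of 0.05, nominal P of 0.01 for rhythms). Fold changes on this scale understate the change of low genes. Fits at single time points, of the interaction and of differences of rhythm used all 36 libraries, which share 1 estimate of the spread; ZT4 with ZT8 used 12 libraries with time point as a factor, and rhythms 18 per condition. Each of these was rerun with the alternatives of the closing section. The scripts were first tested on simulated data. Residuals of same-numbered mice correlated by 0.054 on average (-0.179 to 0.294), with all 3 values at ZT12 at 0.136 or more, and the fits have no block; blocked values are given where they change a call. The members, gene lists and motifs were chosen with earlier results of these data known. Named genes outside the members were the 3 sensors, up to 4 genes per list with the smallest P over the day and at ZT4 and ZT8 that passed, and the 10 genes most alike over the libraries. Gdf15 and Bcl2l11 were named besides, to complete the integrated stress response targets that passed at ZT4 and ZT8. The 12-h component and the contrast of ZT12 with ZT4 were chosen after the data were seen. Figures used Python 3.11.15 and matplotlib 3.10.9.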

Additional observations from a re-analysis of the deposited data

Results flagged for a closer look

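In 5 members the conditions were apart without overlap in opposite directions at ZT4 and ZT12, and the difference between these differences passed limma's test. Of all tested genes 1.56% were apart at both time points in this way, and 2.01% passed that test upward. On the log2(FPKM + 1) scale the difference at ZT12 minus that at ZT4 was 2.3 for Hspa5, 2.78 for Sdf2l1, 3.78 for Creld2, 2.13 for Pdia4 and 3.09 for Hyou1. In each of the 5, IH was lower in 3 of 3 mice at ZT4 and higher in 3 of 3 mice at ZT12 than in any control mouse. For Hyou1 the 12-h component also differed between the conditions (adjusted p = 0.0388 by limma). Both tests were chosen after the values were seen. No outlier test was run within groups of 3 mice.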

How the results depend on the processing

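The change of the difference from ZT4 to ZT12 passed in 5 members under all 7 other settings and in 4 to 6 when 1 library was left out. Among all tested genes it was called for 348 to 1956 and for 180 to 2083 in these fits. The main fit called 777. The member counts at ZT0, ZT8, ZT16 and ZT20 and for the difference of rhythm were 0 throughout. The other counts moved as follows, and the cause was not tested. With the replicate number as a block the counts were 2 at ZT4 and 0 at ZT12, against 1 at each without it. Residuals of same-numbered mice correlated by -0.179 to 0.294 over all time points and by 0.136 to 0.294 at ZT12. Pairs with different numbers were not compared, so whether same-numbered mice deviated together was not tested. The labels give no shared cage or day for a number. With no filter on low values 0 members passed at ZT12, 0 for the 12-h component in control, 4 in IH and 0 for its difference between conditions, against 1, 1, 7 and 1. With FPKM rescaled to a common sum 0 passed at ZT12, 0 for the 12-h component in control and 0 for its difference, and 3 were rhythmic in IH against 1. With median of ratios scaling 3 passed for the 12-h component in control, 2 for its difference and 1 for condition by time point, against 1, 1 and 0. A mean of at least 1 FPKM gave 2 in control and 2 for the difference, and a pseudocount of 0.1 gave 2 in control. Without the 3 libraries with Saa1 above 10000 FPKM, 4 passed at ZT4, 0 at ZT12, 2 for the 12-h component in control, 0 for its difference and 1 for condition by time point, and 7 were rhythmic in IH. Rhythms in IH numbered 7 by an F test over time points, 2 by JTK_Cycle, 6 with a shared spread and 6 by adjusted p; in control they numbered 6 by the F test and 0 by JTK_Cycle, against 3. ZT4 alone gave 4 members against 0 for ZT4 with ZT8, and a nominal P of 0.01 gave 1 over the day against 0. Among all tested genes the calls moved too. Without the Saa1 libraries 1345 were called at ZT4 and 0 at ZT12, against 153 and 102 in the main fit. For the 12-h component in control and for condition by time point that fit called 633 and 103, against 117 and 18. Over the other settings, calls numbered 945 to 1482 for the 12-h component in IH and 1 to 77 for its difference. Rhythms in IH were called for 3638 tested genes by JTK_Cycle, the fewest, and for 6324 by adjusted p, the most. In control they were called for 1992 by JTK_Cycle, the fewest, and for 3762 with a shared spread, the most.

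Leaving out 1 library gave 0 to 3 members at ZT4, 0 to 6 at ZT12, 0 to 1 at ZT4 with ZT8, 0 to 6 for the 12-h component in control, 1 to 8 in IH, 0 to 5 for its difference, 0 to 5 for condition by time point, 1 to 3 rhythmic in control and 1 to 7 in IH. Calls among all tested genes ranged from 22 to 799 at ZT4, 0 to 3121 at ZT12 and 231 to 1344 at ZT4 with ZT8. The 12-h component was called for 19 to 1091 genes in control and 602 to 2631 in IH, and its difference for 0 to 346. Condition by time point was called for 3 to 671 genes. Rhythms were called for 2289 to 3572 genes in control and 4722 to 5601 in IH. Signs turned only in differences that did not pass. Over ZT4 with ZT8, Dnajb9 was -0.00779 with median of ratios and -0.107 at ZT4 alone, Ddit3 -0.0292 at ZT4 alone, and Hspa5 0.138 and Hyou1 0.128 at ZT8 alone. Atf4 at ZT4 was -0.0233 with median of ratios, and the change for Herpud1 0.00115 with a common sum. Without the Saa1 libraries Creld2 over the day was -0.0336, Xbp1 at ZT12 -0.0244 and the change for Atf4 -0.000953. With 1 library left out the ranges were -0.0405 to 0.164 for the change of Atf4, -0.0408 to 0.164 for Atf4 at ZT4, -0.0226 to 0.248 for Creld2 over the day, -0.0107 to 0.696 for Ddit3 at ZT12, -0.158 to 0.101 for Ddit3 at ZT4, -0.0716 to 0.113 for Dnajb9 over ZT4 with ZT8, -0.435 to 0.0923 for the change of Herpud1 and -0.0244 to 0.531 for Xbp1 at ZT12. Among all tested genes the split of higher to lower calls moved with the scaling. With median of ratios it was 527 to 433 at ZT4 with ZT8 (main 799 to 255), 80 to 82 at ZT4 (main 117 to 36) and 405 to 362 for the change (main 266 to 511); with a common sum the change split 237 to 111, ZT12 split 0 to 1 (main 36 to 66), and the median of all genes at ZT12 was 0.114 against 0.0349.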
